A study of Homo sapiens with 12 samples.

Results

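The mitosis genes are 34 genes, among 19305 transcript accessions with counts, whose products carry a cell into and through division. They were listed by name, by a rule that uses no measured value, though with earlier results of these data known. They were found by matching the RefSeq accession of each row to a gene symbol. Each of the 34 had 1 accession, and all 34 passed the filter on low counts in every comparison. They comprise 7 cyclins, CDK1 and its activators (CCNB1, CCNB2, CCNA2, CDK1, CKS2, CDC25B, CDC25C), 4 mitotic kinases and passenger complex genes (PLK1, AURKA, AURKB, BIRC5), 5 spindle checkpoint genes (BUB1, BUB1B, BUB3, MAD2L1, TTK), 3 partners and substrates of the anaphase-promoting complex (CDC20, UBE2C, PTTG1), 5 kinetochore genes (CENPA, CENPE, CENPF, NDC80, NUF2), 9 motor, spindle and cytokinesis genes (KIF11, KIF20A, KIF23, KIF2C, TPX2, NUSAP1, HMMR, PRC1, ECT2) and TOP2A.

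The measurement was ribosome profiling, which counts the mRNA fragments covered by ribosomes, so a count over a coding sequence follows both the amount of mRNA and its translation. The 8 HEK293T libraries, from a human embryonic kidney line that carries the SV40 large T antigen, were all from cells given sodium arsenite, an oxidative stressor. They had control or eIF2A siRNA and an immunoprecipitation (IP) of CBP80, of the nuclear cap-binding complex, or of eIF4E, the cytoplasmic cap-binding protein, with 2 libraries, named set 1 and set 2, in each of the 4 groups. The 4 H9 libraries, from a human embryonic stem cell line, had control or eIF2A shRNA in sets 1 and 2, with no IP and no arsenite on their labels. eIF2A is a protein that can bring initiator tRNA to the ribosome when the usual factor, eIF2, is shut off by stress. The labels give no HEK293T library without arsenite, and they do not say whether the sets are separate cultures. All p-values therefore rest on the spread seen among these libraries, largely pooled over genes, and that spread may be technical.

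Mitosis starts when cyclin B and CDK1 form an active kinase, and ends when the anaphase-promoting complex, a ubiquitin ligase, marks cyclin B and securin for destruction. Until every chromosome is held by spindle microtubules at its kinetochore, the spindle checkpoint keeps the ligase's activator CDC20 bound. Most genes of this programme are transcribed together late in the cell cycle, from promoters with a CHR element, bound by the MuvB complex, and CCAAT boxes, bound by NF-Y. Cycling lines such as HEK293T and embryonic stem cells divide rapidly and express these genes.

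Promoter sequences were at hand for 28 of the 34 members (RefSeq, GRCh38.p14, 300 bases a start, of which 250 lie before it and 50 after). A CHR, spelled TTTGAA or TTCGAA on either strand, lay in the promoter of 21 of the 28 (75%) against 17.5% of 15843 protein-coding genes in the same table. CCAAT, on either strand, lay in 23 of 28 (82.1%) against 42.1%, and both motifs in 18 of 28 (64.3%) against 7.28%. The members with neither motif were CENPE and KIF2C. A match is a description of the letters, and binding was not measured. The 100 bases before the first listed start are shown, 5′ to 3′ on the gene's strand, for the 4 members with promoters that were highest and the 4 that were lowest in H9 relative to HEK293T, since these carry the differences described further on. Capitals mark CHR and CCAAT matches, which do not overlap, with TTCAAA and ATTGG as their reverse complements.

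CDC20, chr1:43358881-43358980, plus strand: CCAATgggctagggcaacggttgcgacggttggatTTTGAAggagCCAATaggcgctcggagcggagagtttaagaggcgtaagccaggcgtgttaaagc

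BUB1, chr2:110678064-110678163, minus strand: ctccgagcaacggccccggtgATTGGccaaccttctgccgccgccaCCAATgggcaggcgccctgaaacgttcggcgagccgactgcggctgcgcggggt

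AURKB, chr17:8210226-8210325, minus strand: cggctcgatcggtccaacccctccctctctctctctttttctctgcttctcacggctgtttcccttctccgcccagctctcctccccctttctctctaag

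PLK1, chr16:23678789-23678888, plus strand: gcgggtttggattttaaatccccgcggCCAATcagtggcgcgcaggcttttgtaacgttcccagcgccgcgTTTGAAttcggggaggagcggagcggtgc

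MAD2L1, chr4:120066849-120066948, minus strand: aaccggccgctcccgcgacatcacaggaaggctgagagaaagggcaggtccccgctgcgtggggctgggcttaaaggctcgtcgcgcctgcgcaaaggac

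KIF2C, chr1:44739737-44739836, plus strand: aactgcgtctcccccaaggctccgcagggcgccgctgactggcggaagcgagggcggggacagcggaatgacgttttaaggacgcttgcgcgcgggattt

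CKS2, chr9:89311095-89311194, plus strand: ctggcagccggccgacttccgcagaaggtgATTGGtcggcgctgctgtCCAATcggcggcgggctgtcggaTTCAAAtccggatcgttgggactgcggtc

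PRC1, chr15:90994536-90994635, minus strand: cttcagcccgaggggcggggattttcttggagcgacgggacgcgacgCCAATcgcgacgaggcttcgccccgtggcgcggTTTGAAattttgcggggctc

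Both sides of the comparison held promoters with the pair of motifs, CDC20 and PLK1 among the genes higher in H9 and CKS2 and PRC1 among those lower there. In this window BUB1 had CCAAT matches alone, and AURKB, MAD2L1 and KIF2C had neither. The CHR matches of PLK1 and CKS2 both began 29 bases before the start.

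Libraries of HEK293T held 4331459 to 5775177 coding reads and those of H9 937990 to 1878700, so that 3 counts, which is as much as a count of 0 can hide, equal 0.519 to 3.2 CPM (counts per 1000000 coding reads). The CBP80 and eIF4E libraries of one siRNA and set differed by 1.01 to 1.03 times the sampling noise (chi-square per degree of freedom, p = 0.0192 to 0.268), against 3.95 to 5.52 between sets of a group, and each such pair was summed and counted as 1 library. H9 libraries of the 2 shRNA labels differed by 1.04 times that noise in set 1 and by 1.07 times in set 2, against 2.67 to 3.31 between sets. EIF2A, the targeted gene, was at 83.2 CPM in control and 96.0 CPM in the library labelled eIF2A siRNA in set 1, at 83.5 and 46.7 CPM in set 2, at 103 and 110.2 CPM in H9 set 1 and at 60.9 and 68.2 CPM in H9 set 2. It was therefore lower under an eIF2A label only in HEK293T set 2, and the groups are called by their labels. Reads outside coding sequences made up 39.9% of uniquely placed reads in control and 51% in the library labelled eIF2A siRNA in set 1 (CBP80; 40.1 and 51.1% with eIF4E), and 35.2 and 42.2% in set 2 (35.3 and 42.4%). The 12 pluripotency markers summed to 6682 to 7208 CPM in H9 and 320.4 to 339 CPM in HEK293T, with 11 of 12 at 1 CPM or more in every H9 library and POU5F1 at 0 in all 12 libraries. LIN28B went the other way, at 29.9 to 42.6 CPM in H9 and 175 to 203 CPM in HEK293T. Of 12 embryonic kidney markers, 8 were at 1 CPM or more in every HEK293T library. PAX8, one of the defining ones, was at 0 in HEK293T and at 1.07 to 3.8 CPM in H9. Summed markers of early neuroectoderm were at 60.6 to 69.1 CPM in HEK293T and 524 to 1151 CPM in H9, of early mesoderm and endoderm at 33.0 to 44.5 and 1.07 to 8.52 CPM, and of trophoblast at 81.2 to 110.2 and 17.2 to 20.2 CPM. The neuroectoderm sum of H9 was nearly all NES (445 to 1066 CPM) and OTX2 (74.2 to 85.4 CPM). PAX6 was at 0 in H9 and at 20.4 to 23.9 CPM in HEK293T. SOX1 and ZIC1 reached at most 3.73 and 0.634 CPM in H9. The trophoblast sum of H9 was nearly all KRT7 (16.5 to 20.2 CPM), which reached at most 0.878 CPM in HEK293T.

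The 34 genes together took 0.745 to 0.862% of coding reads in the 12 libraries. In HEK293T they summed to 7801 and 7472 CPM in the control libraries of sets 1 and 2 and to 8321 and 8203 CPM in those labelled eIF2A siRNA. H9 gave 8056 and 8624 CPM in control and 8025 and 8595 CPM under the eIF2A shRNA label. After TMM scaling, which corrects for the make-up of each library, the HEK293T sums were 7949 and 7795 CPM in control and 7802 and 8231 CPM under eIF2A siRNA, so the groups then overlapped. CCNB1 had the most reads of the 34 in every HEK293T library and in H9 control set 1, TOP2A had the most in the other 3 H9 libraries, and CENPA, the short centromeric histone, had the fewest in all 12, with 13 to 66 reads. Levels of different genes are not set against each other, since no coding lengths were used.

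**Figure D1:**
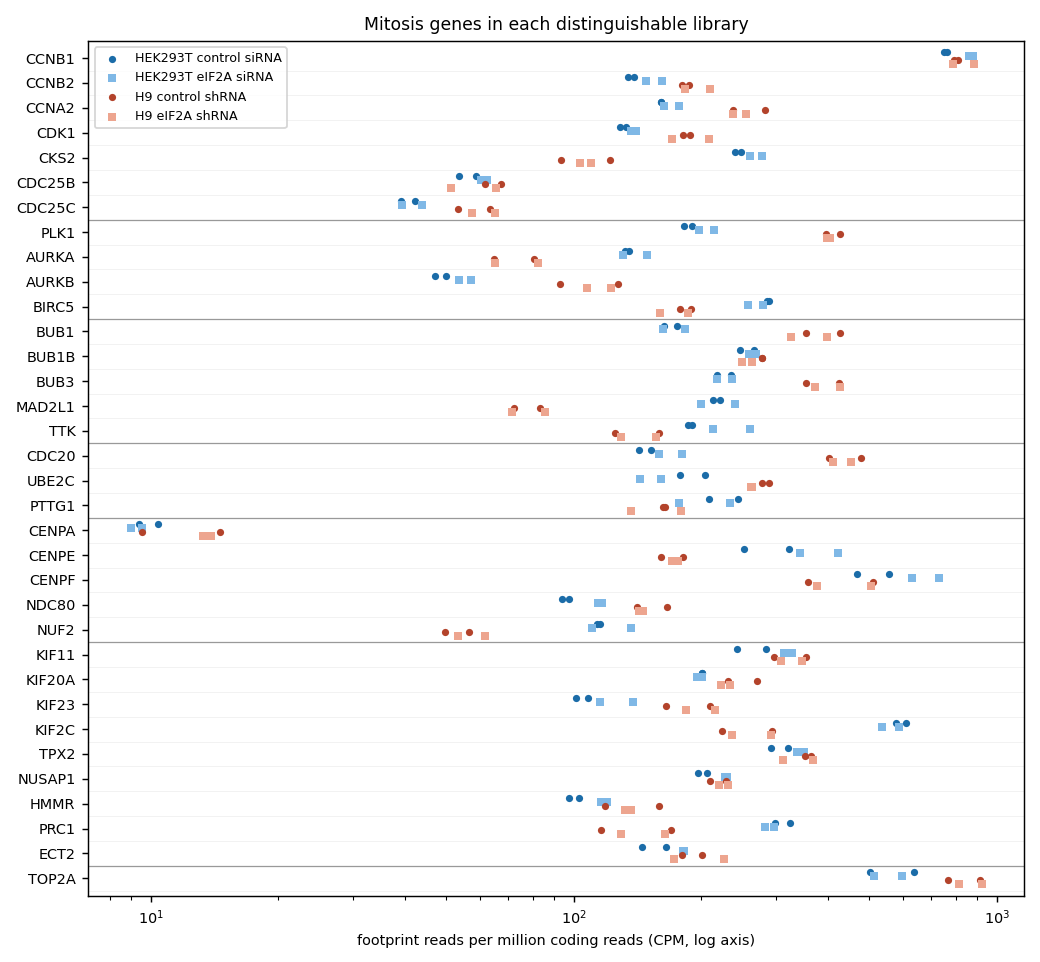
Footprint reads per 1000000 coding reads (CPM, log axis) of the 34 mitosis genes, grouped by role with grey lines between roles, with 1 point for each distinguishable library. Circles are control and squares are eIF2A labels, HEK293T in blue and H9 in red. CDC20, PLK1 and BUB1 lie to the right in H9, while MAD2L1, KIF2C, CKS2 and PRC1 lie to the right in HEK293T.

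The first question was what the eIF2A siRNA did to these genes in arsenite-treated HEK293T. Of the 34, 1 passed the test: UBE2C, the ubiquitin-conjugating enzyme of the anaphase-promoting complex, was at 0.752 times its control level. The count of 1 in 34 stands beside 12.4% of the 12331 genes tested (6.15% higher and 6.29% lower, edgeR's quasi-likelihood test, adjusted p under 0.05). At an unadjusted p under 0.05 there were 3 members (CENPF, CENPE and UBE2C) against 26.9% of all genes. 19 members had a higher and 15 a lower fitted value, their median log2 fold change was 0.04 against 0.00 over all genes, and 31 of 34 lay within 0.25 of 0, with standard errors of 0.134 to 0.201. As listed above, noncoding positions held a higher share of uniquely placed reads under the eIF2A siRNA label in both sets (51 against 39.9% and 42.2 against 35.2% with CBP80), and the part of this in the values was not tested.

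UBE2C was at 178 and 178 CPM in the CBP80 and eIF4E libraries of control set 1 and at 199 and 209 CPM in those of control set 2. Under eIF2A siRNA it was at 144 and 143 CPM in set 1 and at 153 and 169 CPM in set 2. With each pair counted as 1 library, the 2 labelled eIF2A siRNA were below the 2 controls. The share of all genes that separate in this way was not counted. With runs summed and TMM scaling, the mean was 197 ± 22.0 CPM in control and 148 ± 19.3 CPM under the eIF2A siRNA label (SD, n = 2 and 2). The log2 fold change was -0.41 ± 0.14 (SE) with an edgeR adjusted p of 0.0333. RefSeq names 5 pseudogenes of UBE2C, and reads placed equally well in more than 1 locus are not among the counts, so its level is uncertain. The call was lost with library sizes alone (-0.33, edgeR adjusted p = 0.0941), in the fits of all 8 libraries (-0.43 and -0.39, adjusted p = 0.0839 and 0.119), and without control set 1 (-0.53, adjusted p = 0.072), eIF2A siRNA set 1 (-0.29, 0.352) or control set 2 (-0.30, 0.623).

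CENPF and CENPE, both large kinetochore proteins, of which CENPE is a kinesin that carries chromosomes to the spindle equator, had the highest fitted values. CENPF was at 556 and 467 CPM in control sets 1 and 2 and at 730.4 and 630.1 CPM under eIF2A siRNA, and CENPE was at 324 and 253 CPM in control and at 421 and 342 CPM under eIF2A siRNA. In both genes each siRNA library was above both controls. After TMM scaling 19 of the 34 members separated, in either direction, and the share of all genes that do so was not counted. The log2 fold changes were 0.32 ± 0.14 for CENPF and 0.31 ± 0.14 for CENPE (edgeR adjusted p = 0.122 and 0.129), so neither passed. With library sizes alone CENPF was called and UBE2C was not, 26 members had higher and 8 lower values, and all genes split into 739 higher and 294 lower, against 758 and 776 after TMM scaling. With the set as a replicate block, CENPE, CENPF and UBE2C were called, among 2990 genes, and without eIF2A siRNA set 2 it was CENPE, PTTG1 and UBE2C.

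Within each set, where there is no replicate, ratios of CPM with counting intervals show how alike the sets were. Intervals narrow as reads rise, and the shares of all genes are not matched to the members' read numbers. In set 1, 18 members had a 95% exact binomial interval above 1 and 6 below it, beside 32.6 and 15.0% of all genes, and in set 2 there were 18 and 5, beside 26.4 and 18.1%. The interval lay above 1 in both sets for 13 members, among 19.2% of genes: CCNB1, CKS2, CDC20, TTK, CENPE, CENPF, NDC80, KIF11, KIF23, TPX2, NUSAP1, HMMR and ECT2. It lay below 1 in both for KIF2C, PRC1 and UBE2C, among 9.93% of genes. These ratios use all coding reads, on which the median gene was at 1.09 in set 1 and 1.04 in set 2, and the member medians were 1.08 and 1.10. The ratio of UBE2C was 0.804 (0.751 to 0.862) in set 1 and 0.790 (0.741 to 0.843) in set 2. Opposite ways, with intervals excluding 1 in each set, went the checkpoint genes MAD2L1, at 0.906 and 1.13, and BUB3, at 1.08 and 0.929.

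**Figure D2:**
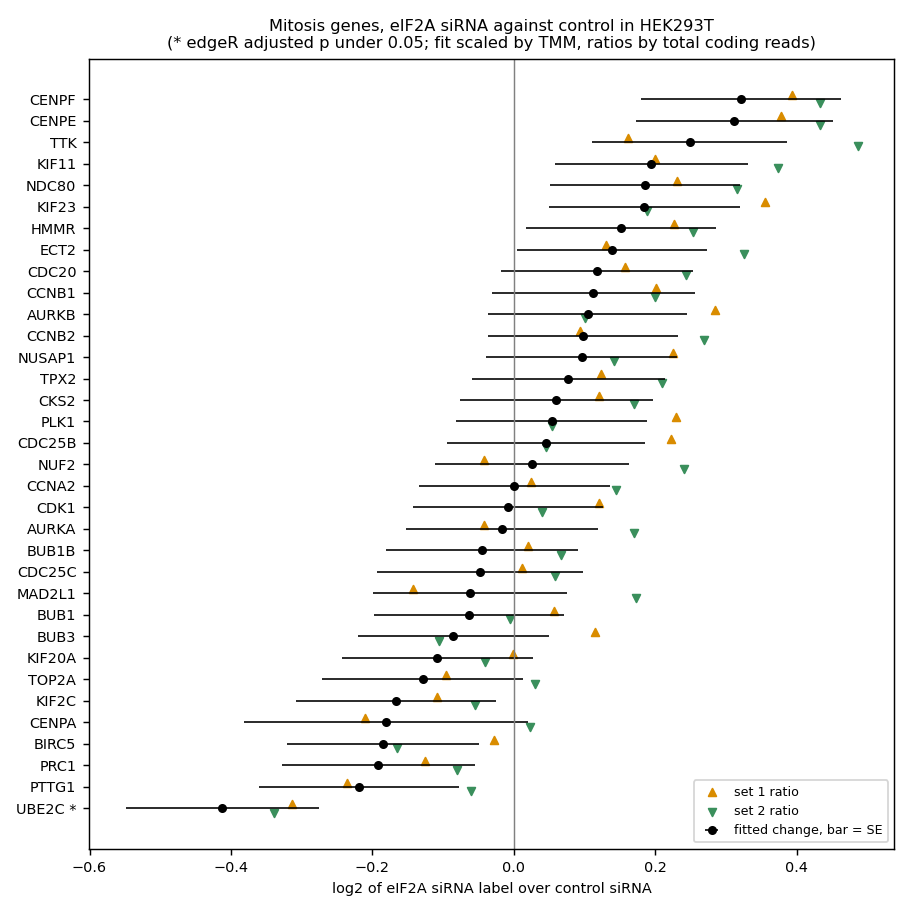
Log2 of the eIF2A siRNA label over control for the 34 mitosis genes in HEK293T: black points are the edgeR fit with bars of 1 SE, upward triangles are set 1 and downward triangles set 2, the last 2 on total coding reads. UBE2C, marked by a star, lies lowest and is the 1 gene past the threshold, while CENPF and CENPE lie highest with both sets above 0.

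The second comparison was between the libraries labelled CBP80 and eIF4E, which in each pair differed by about the sampling noise, as given above. Whether they come from separate precipitations or from 1 library cannot be told apart from the counts, so the result describes these libraries and not the mRNAs held by each protein. None of the 34 passed, nor did any of 11778 genes (0.0% called by edgeR, none in either direction), and at an unadjusted p under 0.05 there were 0 members and 99 genes, 0.841%. DESeq2 called 1 gene and no member. These fits leave out the pairing by set. With the pair of siRNA and set as a replicate block, edgeR called 4 of 11422 genes and no member. In that fit 554 genes and 4 members had an unadjusted p under 0.05. The fitted differences of the members ran from -0.10 for AURKA to 0.17 for CDC25C on the log2 scale, with standard errors of 0.0763 to 0.153. Within the 4 matched pairs of libraries, 5 members had a counting interval above 1 in control set 1 (CDC25C, PLK1, KIF2C, TPX2 and HMMR), none in control set 2, and 1 each in eIF2A siRNA set 1 (MAD2L1) and set 2 (CDC25C), among 2.13, 2.44, 2.21 and 2.32% of genes. Below 1 there were 0, 0, 0 and 2 (UBE2C and TOP2A), among 2.16, 2.43, 2.28 and 2.12%. CDC25C, a phosphatase that activates CDK1, was the 1 member above 1 in more than 1 pair, at 1.21 in both.

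In H9 no member passed between the shRNA labels, as no gene did of 9751 (0.0% by edgeR, 84 genes or 0.861% and 0 members at an unadjusted p under 0.05, and 0 genes by DESeq2). These fits leave the set out. With the set as a replicate block, edgeR called 0 genes, and 493 genes and 0 members had an unadjusted p under 0.05. Fitted log2 changes ran from -0.14 ± 0.14 for KIF20A to 0.17 ± 0.35 for CENPA, with standard errors of 0.116 to 0.352. The 95% interval of CENPA, the gene with the fewest reads, was the widest and ran from -0.63 to 0.96, and that of UBE2C ran from -0.39 to 0.16. Within sets, no member's interval excluded 1 in set 1 (2.1% of genes above and 2.13% below) or in set 2 (2.25 and 2.39%). The difference between the label effects of H9 and HEK293T was tested directly: no member and none of 12911 genes passed (edgeR, 8.2% of genes at an unadjusted p under 0.05 and no member). It was 0.28 ± 0.20 for UBE2C (edgeR adjusted p = 0.729) and -0.33 ± 0.23 for CENPF (0.715), so an effect in HEK293T that H9 lacks was not shown.

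H9 and HEK293T controls differed in 22 of the 34 genes, 11 higher and 11 lower in H9. Highest in H9 relative to HEK293T were CDC20, BUB1, AURKB and PLK1, each by at least 0.97 on the log2 scale, and lowest were MAD2L1, KIF2C, CKS2, PRC1, NUF2 and AURKA, each by more than 1. The background was wide: 71.8% of 12307 genes were called (34.5% higher and 37.3% lower), and 73.5% against 23 members had an unadjusted p under 0.05. The member median was 0.13, beside -0.07 for all genes. After TMM scaling the controls of the 2 lines did not overlap in 28 of the 34 members. The share of all genes that separate in this way was not counted, here or for the single genes below. Summed and TMM-scaled, the 34 genes stood at 8154 and 7976 CPM in HEK293T and at 7530 and 8269 CPM in H9, so the totals overlapped while single members differed. Cell line, arsenite, IP and the kind of control RNA (shRNA in H9, siRNA in HEK293T) all differ between these groups and cannot be told apart. The fibroblast markers also differed, with 17.3 to 22.4 CPM summed in HEK293T and 658 to 828 CPM in H9. In H9, 3 of 6 were at 1 CPM or more in every library: THY1 (370 to 398 CPM), COL1A2 (143 to 256 CPM) and COL1A1 (111 to 178 CPM). COL3A1 was at 0 to 1.6 CPM in H9 and at 1.39 to 3.34 CPM in HEK293T. The defining DCN and LUM were at 0 in H9. The part of these markers in the result was not tested.

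**Figure D3:**
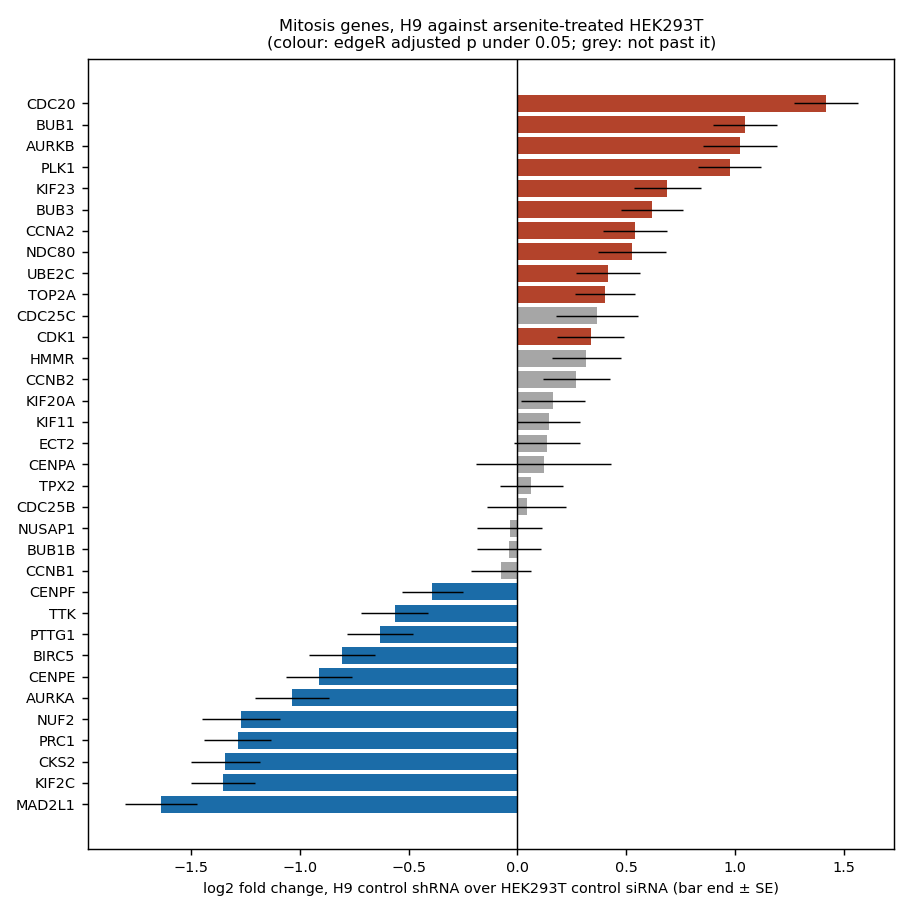
Log2 fold change of H9 control shRNA over arsenite-treated HEK293T control siRNA for the 34 mitosis genes, with bars of 1 SE on each bar end (edgeR, n = 2 and 2). Red bars are the 11 genes past the threshold and higher in H9, blue bars the 11 lower, grey bars the 12 not past it. CDC20 is highest at 1.42 and MAD2L1 lowest at -1.64.

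Among the cyclins, CDK1 and its activators, 2 of 7 were higher in H9 and 1 was lower. CCNB1, the cyclin that starts mitosis, was at 764 and 749.7 CPM in the controls of HEK293T and at 791 and 811 CPM in those of H9, and under the eIF2A labels at 879 and 861 CPM in HEK293T and 789 and 882 CPM in H9 (set 1 first here and in what follows). Its controls hardly differed between the lines, with a log2 fold change of -0.08 ± 0.14 (edgeR adjusted p = 0.623). CDK1 was at 129 and 133 CPM in HEK293T and at 181 and 188 CPM in H9 controls, and at 140.1 and 137 CPM and 171 and 209 CPM under the eIF2A labels. All H9 libraries were above all HEK293T libraries, and the difference was 0.34 ± 0.15 (adjusted p = 0.0387), which passed in 8 of 14 settings. CDK1 did not pass between the siRNA labels, at -0.01 ± 0.13 with a 95% interval of -0.27 to 0.26. CCNA2, the S-phase and early mitotic cyclin, was 0.54 ± 0.15 higher in H9, from 169.6 ± 2.74 to 247 ± 25.8 CPM (SD, n = 2 and 2).

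CKS2, a small subunit that docks CDK1 on its substrates, went the other way. It was at 240.1 and 248 CPM in HEK293T controls, at 261 and 279 CPM under eIF2A siRNA, at 122 and 93.3 CPM in H9 controls and at 109.7 and 103 CPM under eIF2A shRNA. Every H9 library lay below every HEK293T library, and the log2 fold change between controls was -1.34 ± 0.16 (edgeR adjusted p = 1.98e-16). CCNB2, CDC25B and CDC25C did not pass, at 0.27, 0.04 and 0.37.

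Of the 4 mitotic kinases and passenger complex genes, 2 were higher and 2 lower in H9. PLK1, the polo kinase that acts from mitotic entry to cytokinesis, was at 183 and 191 CPM in HEK293T controls and 425 and 394 CPM in H9 controls, and at 214 and 198 CPM and 403 and 398 CPM under the eIF2A labels. AURKB, the kinase of the chromosomal passenger complex that corrects wrong attachments, was at 47.0 and 49.9 CPM against 92.6 and 127 CPM, and at 57.3 and 53.5 CPM against 108 and 123 CPM. Both were higher in H9, by 0.97 ± 0.14 and 1.02 ± 0.17 (edgeR adjusted p = 5.88e-11 and 7.92e-09), with no overlap of the lines. AURKA, the spindle pole kinase, was at 135 and 133 CPM in HEK293T and at 64.7 and 80.7 CPM in H9 controls, and at 131 and 149 CPM and 82.5 and 65.0 CPM under the labels, which gives -1.04 ± 0.17. BIRC5 (survivin), a partner of AURKB in the passenger complex, was at 286 and 289.8 CPM against 189.6 and 178 CPM in controls and at 281 and 258 CPM against 186 and 159.9 CPM under the labels, and was lower in H9 by the fit, at -0.81 ± 0.15. AURKB and BIRC5 differed in opposite directions between the lines. Both directions were common among all genes, with 34.5% called higher and 37.3% lower in H9. Opposite signs in a pair, here and below, are therefore not read as a result about the pair. RefSeq names 2 pseudogenes of AURKA and 1 each of AURKB and CCNB2, so the levels of these genes are uncertain too.

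The 5 checkpoint genes also split, with BUB1 and BUB3 higher in H9, MAD2L1 and TTK lower and BUB1B past no threshold. MAD2L1 (Mad2), which binds CDC20 directly, was at 221 and 213 CPM in HEK293T controls and at 72.3 and 83.4 CPM in H9 controls, and at 200.3 and 240.0 CPM and 71.3 and 85.3 CPM under the eIF2A labels. It had the lowest fold change of the 34, -1.64 ± 0.17, from 229 ± 2.75 to 73.8 ± 8.76 CPM (edgeR adjusted p = 5.4e-22). BUB1, the kinase that recruits other checkpoint proteins to kinetochores, was at 176 and 163 CPM against 354 and 427 CPM in controls and at 183 and 163 CPM against 326 and 397 CPM under the labels. Its fold change was 1.05 ± 0.15, and the lines did not overlap. BUB3, the partner that brings BUB1 and BUB1B to the kinetochore, was at 218 and 235 CPM against 424 and 354 CPM in controls and at 236 and 219 CPM against 427 and 372 CPM under the labels, a difference of 0.62 ± 0.14. BUB1B (BubR1) was at 266 and 248 CPM against 279 and 279 CPM in controls and 270.0 and 259 CPM against 265 and 251 CPM under the labels, where the lines overlapped, with -0.04 ± 0.15. TTK (Mps1), the kinase at the head of the checkpoint, was at 191 and 186 CPM against 125 and 159 CPM in controls, and at 213 and 261 CPM against 129 and 157 CPM under the labels. TTK was lower in H9 by the fit, at -0.56 ± 0.15, and this call was lost without H9 control set 1, at -0.36. Pseudogenes of BUB1, BUB3 and MAD2L1 are named in RefSeq, 1 of each.

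Of the genes around the anaphase-promoting complex, CDC20, its activator, had the highest fold change of the 34. CDC20 was at 142 and 153 CPM in HEK293T controls, at 159 and 180.5 CPM under eIF2A siRNA, at 478 and 402 CPM in H9 controls and at 453 and 409 CPM under eIF2A shRNA. All H9 libraries stood above all HEK293T libraries, and the control means were 156 ± 9.80 and 416 ± 43.2 CPM (SD, n = 2 and 2), a log2 fold change of 1.42 ± 0.15 (edgeR adjusted p = 1.97e-21). UBE2C was at 289.8 and 279 CPM in H9 controls and 262 and 263 CPM under eIF2A shRNA, and was 0.42 ± 0.15 higher than in HEK293T, which was lost without HEK293T control set 1 (0.30). PTTG1 (securin), which holds separase inactive until anaphase, was at 208 and 245 CPM against 162 and 164 CPM in controls and 177 and 235 CPM against 137 and 179 CPM under the labels, where the lines overlapped, and the fit of controls gave -0.63 ± 0.15. RefSeq names 1 pseudogene of CDC20 and 2 of PTTG1, so the levels of these genes carry the same uncertainty as that of UBE2C. The fitted changes of CDC20 and of MAD2L1, the checkpoint protein that binds it, were opposite in sign, on the same background of all genes.

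At the kinetochore NDC80 was higher in H9 (0.53 ± 0.16) while NUF2, its partner in the same microtubule-binding complex, was lower (-1.27 ± 0.18). NDC80 was at 97.3 and 93.9 CPM in HEK293T controls and 141 and 166 CPM in H9 controls, and NUF2 at 114 and 116 CPM and at 56.4 and 49.6 CPM. Neither gene's lines overlapped under the eIF2A labels, with 114 and 117 CPM against 146 and 143 CPM for NDC80 and 110.5 and 137 CPM against 53.2 and 61.8 CPM for NUF2. CENPE was at 181 and 161 CPM in H9 controls and 170.3 and 176 CPM under eIF2A shRNA, below every HEK293T library, at -0.91 ± 0.15. CENPF, at 358 and 511 CPM in H9 controls and 376 and 503 CPM under eIF2A shRNA, was lower by the fit at -0.39 ± 0.14, and was called in 9 of 14 settings. CENPA, with 10.4 and 9.37 CPM in HEK293T and 9.51 and 14.6 CPM in H9 controls, did not pass (0.12 ± 0.31).

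Among the 9 motor, spindle and cytokinesis genes 1 was higher in H9, 2 were lower and 6 did not pass. KIF2C (MCAK), a kinesin that takes microtubules apart, was at 578 and 609 CPM in HEK293T controls, 536 and 586 CPM under eIF2A siRNA, 224 and 294 CPM in H9 controls and 236 and 292 CPM under eIF2A shRNA. PRC1, which bundles the microtubules of the central spindle, was at 325 and 299.8 CPM, 298 and 284 CPM, 116 and 170.1 CPM, and 129 and 164 CPM in the same order. For both genes all HEK293T libraries were above all H9 libraries, with log2 fold changes of -1.35 ± 0.15 and -1.28 ± 0.15 (edgeR adjusted p = 1.43e-19 and 4.2e-16). KIF23, a kinesin of the same central spindle, was at 108 and 101 CPM in HEK293T and 165 and 210.4 CPM in H9 controls, and 138 and 115 CPM and 185 and 215 CPM under the labels, higher in H9 by 0.69 ± 0.15. KIF11 (Eg5), the motor that pushes spindle poles apart, was at 285 and 243 CPM against 297 and 353 CPM in controls and 328 and 315 CPM against 309 and 346 CPM under the labels, and the lines overlapped (0.14 ± 0.14). KIF20A, TPX2, NUSAP1, HMMR and ECT2 had fitted values of -0.04 to 0.32, with HMMR nearest to the threshold (edgeR adjusted p = 0.0638).

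TOP2A, the topoisomerase that untangles sister chromatids, was at 639 and 501 CPM in HEK293T controls and 597 and 512 CPM under eIF2A siRNA, and at 765 and 913 CPM in H9 controls and 812 and 922 CPM under eIF2A shRNA. All H9 libraries were above all HEK293T libraries, and the control difference was 0.40 ± 0.14 (edgeR adjusted p = 0.00544). It passed in 12 of 14 settings, not without HEK293T control set 2 (0.25) or H9 control set 2 (0.28).

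Of the 22 genes called between the lines, 17 (8 higher and 9 lower) were called in all 14 settings tried. The 5 others were CDK1, CENPF, TOP2A, TTK and UBE2C. Library sizes alone moved the median of all genes from -0.07 to 0.09 and gave 16 higher and 10 lower members.

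Between the sets of H9, with both shRNA labels summed, 14 members had a counting interval above 1 in set 2 over set 1 and 4 below it, beside 11.1 and 13.7% of all genes. These are ratios of 2 libraries with no replicate, and the shares of all genes are again not matched for read number. The largest was that of CENPF, 1.38 (1.28 to 1.49), which was at 358 and 376 CPM in the control and eIF2A shRNA libraries of set 1 and at 511 and 503 CPM in those of set 2. PRC1 followed at 1.36 (1.19 to 1.56), KIF2C at 1.27 (1.15 to 1.41), and AURKB and TTK at 1.24 each, and in all 5 genes both libraries of set 2 were above both of set 1. Below 1 were CKS2 (0.844), BUB3 (0.848), CDC20 (0.872) and CCNA2 (0.888). In HEK293T the members followed no single direction either: 4 had an interval above 1 and 9 below it in control set 2 over set 1 (11.6 and 17.4% of genes), and 11 and 8 in the libraries labelled eIF2A siRNA (10.7 and 26.1%). CENPE (0.783 and 0.813), CENPF (0.839 and 0.863) and TOP2A (0.785 and 0.856) were lower in set 2, and PTTG1 (1.17 and 1.33) higher, in both.

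**Figure D4:**
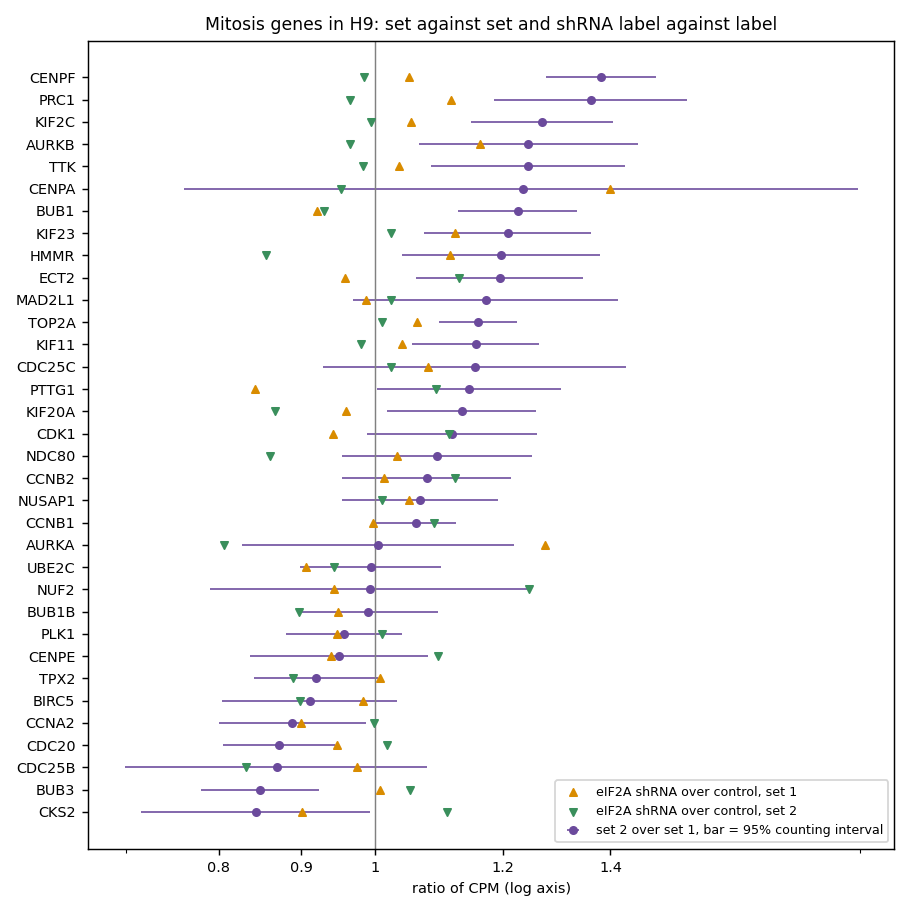
Ratios of CPM for the 34 mitosis genes in H9 (log axis): circles are set 2 over set 1 with both shRNA labels summed, with 95% exact binomial counting intervals, and triangles are eIF2A shRNA over control within set 1 (up) and set 2 (down). CENPF, PRC1 and KIF2C lie highest between sets, CKS2 and BUB3 lowest, and 18 of the 34 intervals exclude 1.

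Of the wider division machinery, 178 genes in 9 lists were tested, and 17 were higher and 5 lower under eIF2A siRNA in HEK293T, a share of the 178 close to the 12.4% called among all genes (6.15% higher and 6.29% lower). Among the condensin, cohesin and separase genes 4 of 22 were higher under the label. They were PDS5A (0.55 ± 0.14) and WAPL (0.44 ± 0.14), which release or pace cohesin on chromatin, ESCO1 (0.64 ± 0.16), an acetyltransferase of cohesin, and SGO2 (0.42 ± 0.14), a protector of centromeric cohesin. The median of this list was 0.19 against 0.00 for all genes. Its 4 higher and 0 lower calls became 2 and 2 with DESeq2, 4 and 1 with a filter at a mean count of 50, 8 and 3 with the set as a replicate block, 5 and 1 without eIF2A siRNA set 2, and 0 and 0 without eIF2A siRNA set 1, without control set 2 and in both fits of 8 libraries. The kinetochore list had 2 of 28 higher, among them SKA3 (0.42 ± 0.14), and the checkpoint list 1 of 11, SPDL1 (0.38 ± 0.13). Of 32 kinesin and spindle genes 3 were higher, among them KIF5B (0.64 ± 0.14) and KIF14 (0.60 ± 0.14), and 3 lower, among them RAN (-0.48 ± 0.15) and HAUS4 (-0.46 ± 0.15). Of 25 kinases, phosphatases and entry regulators 4 were higher, NEK7 (0.76 ± 0.22), WEE1 (0.46 ± 0.14), the kinase that holds CDK1 inactive, CCNB3 (0.71 ± 0.23) and PPP2R5A (0.56 ± 0.18). ENSA was lower by 0.49 ± 0.14. None of 17 genes of the anaphase-promoting complex and none of 13 cytokinesis genes passed (all edgeR, adjusted p under 0.05). These calls rested on single libraries: the 17 and 5 became 0 and 0 without control set 2, 2 and 0 without eIF2A siRNA set 1, 9 and 2 without control set 1, 17 and 9 without eIF2A siRNA set 2, 3 and 0 in either fit of 8 libraries, and 6 and 6 with DESeq2.

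Between H9 and HEK293T controls 46 of the 178 were higher in H9 and 78 lower, a share called that lies near the 71.8% of all genes (34.5% higher and 37.3% lower). In the kinetochore list 18 of 28 were lower and 7 higher, among the lower ones CENPW (-1.97 ± 0.17) and KNL1 (-1.92 ± 0.18), the scaffold to which BUB1 binds. The median of that list was -0.70, beside -0.07 for all genes, and the 18 lower genes became 14 with library sizes alone or with a filter at a mean count of 50, 12 with DESeq2, 13 without HEK293T control set 2 and 12 without H9 control set 2. In the checkpoint list 2 of 11 were higher and 4 lower, with MAD2L2 at 2.40 ± 0.17 and KNTC1 at -1.77 ± 0.15. The anaphase-promoting complex had 6 higher and 7 lower of 17, with its subunit CDC16 at 2.66 ± 0.17 and ANAPC15 at -1.65 ± 0.20. Other lists were similarly mixed, with 5 higher and 9 lower of 22 for condensin and cohesin (NCAPD3, -2.07 ± 0.16), 7 and 12 of 32 for kinesins and the spindle (ASPM, -2.44 ± 0.16), 5 and 13 of 25 for kinases and entry regulators (WEE1, 1.97 ± 0.16) and 6 and 5 of 13 for cytokinesis (SEPTIN9, 2.55 ± 0.15). With library sizes alone the 46 and 78 became 57 and 61. No gene of the 9 lists passed between the shRNA labels in H9 by edgeR.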

How the data were processed

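TRIzol extraction and a TruSeq small RNA kit made the libraries, per the labels' protocols. Trimming and alignment tools were cutadapt and STAR 2.5.2b, with build hg19, per the submitters' processing notes. The counter, strand setting and annotation are not stated there, so antisense overlaps cannot be told apart. The authors deposited raw counts, 1 whole number for each coding sequence, which were used as deposited. Rows that name no gene, 87.5 to 89.5% of counts in HEK293T and 96.2 to 96.5% in H9, stayed out of library sizes and tests. Of 19305 accessions 18888 were named through RefSeq (GRCh38.p14, for names and promoters only), and 417 kept their accession.

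The members, the lists and the tests were chosen with earlier results of these data known. Counts were tested across all genes in R 4.3.3 with edgeR 4.0.16 (filterByExpr, TMM, robust glmQLFit, glmQLFTest, Benjamini-Hochberg, threshold 0.05). The fits of HEK293T siRNA, H9 shRNA and the 2 controls had 2 residual degrees of freedom each. Groups, sets and IP came from the titles. CBP80 and eIF4E libraries of one siRNA and set were summed, except in the comparison of the 2. CPM of single libraries uses total coding reads, means and SDs use TMM scaling, and standard errors are the fold change over the square root of F. Counting intervals are 95% exact binomial over at least 20 reads, and cover counting error only. Alternatives were RLE scaling, library sizes alone, no filter, a filter at a mean count of 50, DESeq2 1.42.0, leaving out each library, a replicate block, the 8-library fits and other runs of the controls. CBP80 and eIF4E libraries of one siRNA and set deviated together over genes (r = 0.388 to 0.696 in the 4 pairs), so they are pairs, and with the pair as a block edgeR called 4 of 11422 genes and no member.

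Every library's value is given for members past the threshold in the siRNA, IP or shRNA comparisons, the 6 largest differences each way between H9 and HEK293T, the 4 largest ratios between H9 sets and 18 genes picked by role. List genes are those past the threshold, at most 4 a list, and 1 gene that this rule takes is not reported here. Run on simulated data in which 200 genes differed 2-fold, the code recovered 95.5% in the siRNA comparison (12315 genes), 100% in the IP comparison (11735), 93% in H9 (9768) and 88.5% between lines (11971). The false share among the calls was 3.54% for siRNA, 5.21% for IP, 6.53% for H9 and 3.80% between lines. These data were drawn at a constant dispersion of 0.01, so the rates check the code only.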

Additional observations from a re-analysis of the deposited data

How the results depend on the processing

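Under eIF2A siRNA, the 1534 genes called by edgeR became 676 with DESeq2, 473 and 381 in the 8-library fits of CBP80 and eIF4E, and 75 to 2086 when 1 library was left out, the lowest without control set 2. The 1 member called became 0 in both 8-library fits and 0 to 3 when 1 library was left out. With the set as a replicate block the counts were 2990 genes and 3 members. The labels do not say what libraries of a set share. Within a set, deviations of the 2 labels correlated at 0.295 in HEK293T and 0.391 in H9. The H9 value lies in the range of the CBP80 and eIF4E pairs (0.388 to 0.696). H9 libraries were also closer within a set than between sets, as given above. Pairing by set is thus not excluded, and the main fits did not use it. With the same block H9 shRNA stayed at 0 genes, H9 against HEK293T came to 8594 against 8842, and the test of the difference between label effects to 571 genes and no member. Between CBP80 and eIF4E, 0 genes became 3 with no count filter, 1 with DESeq2, 4 with the pair as a replicate block and 0 to 2 when 1 library was left out, with no member among them. Alternatives on footprints per codon were not run, since no coding lengths were used here. Whether changes followed coding length was not tested. In H9, with 13 to 25 reads of CENPA a library, depth limits what could be seen for that gene.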

Other observations

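Upstream of the mitosis genes, the list of factors that transcribe them had 2 of 14 genes past the threshold under eIF2A siRNA in HEK293T, FOXM1 (log2 fold change 0.53 ± 0.15, edgeR adjusted p = 0.0123), the late cell cycle activator, and RBL1 (0.57 ± 0.18, adjusted p = 0.0286), a pocket protein of the repressive form of the MuvB complex. This stands beside 12.4% of all genes called. No gene of the list was called with DESeq2, in the 8-library fit of eIF4E, or without control set 1, eIF2A siRNA set 1 or control set 2. The list median was 0.29 against 0.00 over all genes. Between H9 and HEK293T controls 1 of the 14 was higher, E2F4 (1.14 ± 0.19), and 5 were lower, among them the MuvB subunits LIN52 (-2.84 ± 0.29), LIN9 (-1.31 ± 0.20) and LIN37 (-1.70 ± 0.29).

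Of 16 G1 and S-phase genes, CCNE1, the cyclin that opens S phase, was higher under eIF2A siRNA (0.77 ± 0.16, edgeR adjusted p = 0.000617), and CDC7, the kinase that fires replication origins, was lower (-0.39 ± 0.13, adjusted p = 0.0391). The CDC7 call was lost with library sizes alone, in both 8-library fits, and without control set 1, eIF2A siRNA set 1 or control set 2. Between the lines 7 were higher in H9, among them CCND2 (2.15 ± 0.16), CDK4 (1.35 ± 0.15) and CDKN1B (1.47 ± 0.22), and 5 lower, among them CDK2 (-1.87 ± 0.18). As for the members, cell line, arsenite, IP and the kind of control RNA cannot be told apart here, and the siRNA calls of all lists together fell to 0 without control set 2.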
